A study of Homo sapiens with 11 samples.

Results

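AluJ elements are the oldest of the dimeric Alu repeats in the human genome, and the Alu monomers FLAM, FRAM and FAM are relics of the still older stage before a left and a right arm were joined. The members were all rows of the deposited J2 tables whose name begins SINE/Alu_AluJ or SINE/Alu_F, which gave 298539 dimeric AluJ elements and 65696 monomers, together 364235 of 5622516 repeat elements and of 1238490 Alu elements. The rule uses names alone and no read count. All cells were HCT116, an established human colorectal cancer line. The control siRNA targeted luciferase (siLuc) and the knockdown siRNA targeted Staufen1 (siStau1), a protein that binds double-stranded RNA. Cells received either DMSO, the solvent, or decitabine (DAC, 500 nM for 5 days), which blocks DNA methylation. J2 is an antibody to double-stranded RNA. RNA bound by it was sequenced once from siLuc cells with DMSO (the DMSO library), once from siLuc cells with DAC (the DAC library) and once from siStau1 cells with DAC (the siStau1 library), so no J2 difference between conditions has a replicate check. The labels of these libraries name J2, while the protocol text shared by all samples names a Staufen1 antibody, and which antibody was used is not settled by the sources used here. Total RNA was sequenced from both siRNAs with DMSO and with DAC, in 2 libraries for each of these 4 groups, and deposited as 1 value per group.

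Alu elements descend from 7SL RNA, the RNA of the signal recognition particle, which guides nascent secretory proteins to the endoplasmic reticulum. The earliest copies were single arms: the free left arm (FLAM), the free right arm (FRAM) and the fossil monomer (FAM). A left and a right arm then fused into the dimer whose first subfamily is AluJ, followed by AluS and AluY. Alu RNA of either form can be made by RNA polymerase III from an internal promoter, or be carried inside introns and untranslated ends of messenger RNA precursors, and copies in opposite orientation can pair into double-stranded RNA. The proteins SRP9 and SRP14 bind the Alu fold as a heterodimer, ADAR edits paired Alu RNA, and Staufen1 binds such duplexes.

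AluJ elements held many more J2 reads than monomers in each of the 3 libraries. Reads on AluJ numbered 9084913 in the DMSO library, 7491436 in the DAC library and 10207114 in the siStau1 library, which was 12.7%, 10.9% and 12.3% of all reads on repeats. Reads on monomers numbered 321000, 393165 and 441196 in the same order, or 0.449%, 0.570% and 0.531%. The AluJ share was lowest in the DAC library, where the monomer share was highest. Each annotated AluJ element had 30.4, 25.1 and 34.2 reads on average, and each monomer 4.89, 5.98 and 6.72 reads. The log2 ratio of these means, AluJ over monomers, was 2.35 ± 0.29 (SD, n = 3 libraries), and AluJ was higher in 3 of 3 libraries. Each library is a different condition, so this SD is not a spread between replicates. The two-sided exact sign-flip permutation test gave p = 0.25, the smallest p that 3 pairs allow. Monomers are shorter than dimers, the deposited tables hold no element lengths, and these means are therefore per element and not per base.

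Monomers made up 18.0% of the member elements but 3.41% of the member reads in the DMSO library (3.401% to 3.42%, a Wilson 95% interval), 4.99% in the DAC library (4.97% to 5.00%) and 4.14% in the siStau1 library (4.13% to 4.16%). This share lies within a library, so it does not depend on how libraries are scaled. At least 1 read was found on 48.3%, 42.5% and 48.0% of AluJ elements and on 26.4%, 28.2% and 28.2% of monomers. Over the 3 libraries 56.9% of AluJ elements and 37.7% of monomers had a read in at least 1, and 36.0% and 18.4% in all 3. AluS, the younger dimers that followed AluJ, had a read on 56.5%, 47.0% and 55.1% of its 720665 elements, so AluJ lay between AluS and the monomers in all 3 libraries.

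By subfamily, the order of reads per element was the same in the 3 libraries for AluJ. AluJb, the subfamily with 121115 elements, had 35.7 reads per element in the DMSO library, 28.8 in the DAC library and 39.6 in the siStau1 library. AluJr, with 117446 elements, had 28.1, 23.6 and 31.9. AluJo, with 47320 elements, had 24.9, 20.8 and 28.2, and AluJr4, with 12658, had 22.4, 19.9 and 25.8. All 4 dimeric subfamilies were therefore lowest in the DAC library. Among monomers the left-arm subfamilies were lowest: FLAM_A (15391 elements) had 3.302, 4.50 and 4.85 reads per element and FLAM_C (25202 elements) had 4.42, 5.52 and 6.29. FRAM, the right arm (20741 elements), had 5.86, 7.12 and 7.92. FAM (4362 elements) had 8.56, 8.48 and 10.03 reads per element, but 1 FAM element held 25.7%, 8.66% and 14.1% of them. None of the monomer subfamilies reached the lowest AluJ subfamily in any library. As a share of all reads on repeats, each monomer subfamily was highest in the DAC library, unlike in raw reads. For FAM these shares were close, at 0.0522%, 0.0537% and 0.0527%.

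**Figure D1:**
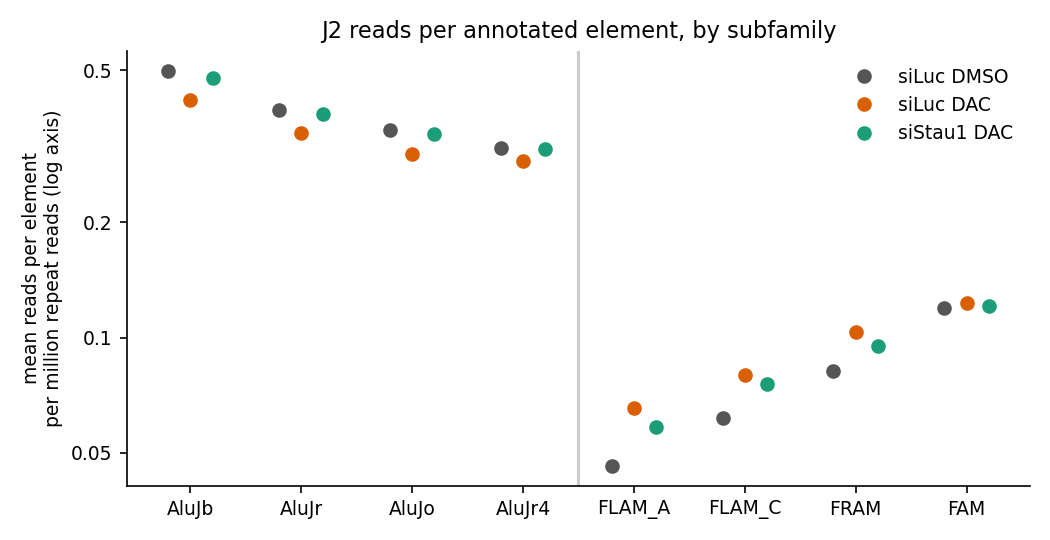
Mean J2 reads per annotated element, scaled to the library's reads on repeats as the axis states (log axis), for the 4 AluJ and 4 monomer subfamilies, with 1 point per library. Every AluJ subfamily lies above every monomer subfamily, and the DAC library is the lowest point for each AluJ subfamily and the highest for each monomer subfamily.

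Reads were concentrated on few elements in both groups. The 1% of AluJ elements with the most reads held 34.6% of AluJ reads in the DMSO library, 36.2% in the DAC library and 36.0% in the siStau1 library, and the top 1% of monomers held 44.3%, 41.5% and 44.0%. The 3 AluJ elements with the most reads were AluJb_1959_30, AluJb_1362_14 and AluJo_1694_12, named as deposited without the class. AluJb_1959_30 had 14722 reads in the DMSO library, 7964 in the DAC library and 19058 in the siStau1 library. AluJb_1362_14 went the other way, with 6255, 21731 and 12596 reads, while AluJo_1694_12 had 12787, 10542 and 15416. No AluJ element held more than 0.290% of AluJ reads in any library. Among monomers, FRAM_574_2 had 2868, 14376 and 5354 reads, FAM_1069 had 9583, 3204 and 6159, and FRAM_950_13 had 4120, 3648 and 6174. The first of these held 3.66% of all monomer reads in the DAC library, and the second 2.99% in the DMSO library.

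With decitabine in control cells, monomers were higher and AluJ elements lower relative to all repeat reads. Element ratios are given as log2 of reads relative to the repeat total of the library, after adding 0.5, and cover elements whose reads in the pair of libraries sum to 20 or more. Of AluJ elements 26.8% passed this minimum, and of monomers 9.96%. The median was −0.23 over 79912 AluJ elements (order-statistic 95% interval −0.24 to −0.22) and 0.40 over 6544 monomers (0.38 to 0.44), while all 604858 repeat elements past the minimum had a median of 0.01. These intervals treat elements as independent and say nothing of the spread between cultures. The AluJ median lay 0.63 below that of the monomers, a difference that does not depend on the scaling. The direction of the AluJ median itself does: it was 0.66 under the authors' deposited library factors and 0.065 when scaled to all Alu reads, and −0.55 when scaled to repeats outside Alu. The monomer median was positive under all 4 scalings, from 0.081 (outside Alu) to 1.29 (authors' factors).

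At least 2-fold higher in the DAC library were 1896 monomers (28.97%) and 7208 AluJ elements (9.02%), beside 21.3% of all repeat elements tested. At least 2-fold lower were 517 monomers (7.90%) and 15697 AluJ elements (19.6%), beside 17.0% of all. The monomer share was above that of all repeats on the upper side and below it on the lower side, and the AluJ share was below that of all repeats on the upper side and above it on the lower side. Every AluJ subfamily had a negative median, from −0.28 in AluJb over −0.20 in AluJr and −0.18 in AluJo to −0.10 in AluJr4. Every monomer subfamily had a positive one, with 0.55 in FLAM_A, 0.48 in FLAM_C, 0.46 in FAM and 0.25 in FRAM. Summed reads gave the same directions: a fold of 0.855 for AluJ and 1.27 for monomers. FAM was near no change as a sum (fold 1.03), and without FAM_1069 its log2 ratio of sums went from 0.04 to 0.34. For FRAM, leaving out FRAM_574_2 moved it from 0.33 to 0.22.

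AluJ stood close to the younger dimers and the monomers close to an unrelated old repeat. The AluS median was −0.38, so AluJ lay 0.15 above it (0.14 to 0.15). The median of MIR, an older short repeat that is not derived from 7SL, was 0.46, and the monomers lay 0.05 below it (−0.09 to −0.02). For the 1428 annotated copies of 7SL RNA, of which 242 passed the minimum, the median was 0.09 (−0.05 to 0.20). The 14 copies with the most reads held nearly all 7SL reads in each library, so this median mostly describes copies with few reads. Summed 7SL reads gave a fold of 1.06.

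In the siStau1 against the DAC library, the knockdown comparison, the order of the groups was the opposite. The median was 0.14 over 80580 AluJ elements (0.13 to 0.14) and −0.15 over 7193 monomers (−0.17 to −0.13), with 0.03 over all 644672 repeat elements past the minimum. At least 2-fold higher in the siStau1 library were 15.8% of AluJ elements and 10.7% of monomers, beside 15.5% of all repeats, so the AluJ share was near that of all repeats. At least 2-fold lower were 8.75% and 18.0%, beside 14.8%. AluJb had the highest median of the AluJ subfamilies with 0.16, followed by AluJr with 0.13, AluJo with 0.11 and AluJr4 with 0.08. The monomer subfamilies had −0.17 in FLAM_A, −0.19 in FLAM_C, −0.19 in FAM and −0.09 in FRAM. These directions depend on scaling: the AluJ median was −0.18 under the authors' factors and −0.068 over Alu reads, and the monomer median was 0.058 when scaled to repeats outside Alu. This comparison and the previous one share the DAC library, so a library that stands apart would move them in opposite directions.

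The DAC library did stand apart for single elements. Of AluJ elements with at least 20 reads in both other libraries, 936 of 54815 (1.71%, Wilson 95% interval 1.60% to 1.82%) had 0 reads in the DAC library, against 11 of 49672 in the DMSO library and 1 of 48403 in the siStau1 library. For monomers the counts were 28 of 3020 (0.927%, 0.642% to 1.34%), 4 of 3393 and 1 of 2793. The share over all repeats was 2.15% in the DAC library, so the shares of both AluJ and monomers lay below that of all repeats. Across elements whose reads summed to 20 or more over the 3 libraries, Pearson's r of log2 reads was 0.88 between the DMSO library and the siStau1 library for 94365 AluJ elements, and 0.74 and 0.77 for the pairs with the DAC library. For 8704 monomers the values were 0.73, 0.59 and 0.66. These correlations are across elements of the same libraries and carry no test.

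The comparison that does not use that library, the siStau1 against the DMSO library, differs in both siRNA and drug. AluJ had a median of −0.10 over 84171 elements (−0.10 to −0.09) and monomers one of 0.26 over 6534 (0.24 to 0.28), with 0.04 over all repeats. The AluJ median thus lay 0.35 below that of the monomers. At least 2-fold higher were 6.60% of AluJ elements and 19.4% of monomers, beside 14.5% of all repeats, and at least 2-fold lower 9.41% and 6.55%, beside 8.27%. Under the authors' factors the AluJ median was 0.47. FLAM_A had the highest subfamily median with 0.34, then FLAM_C with 0.30, FRAM with 0.20 and FAM with 0.18, while the AluJ subfamilies ran from −0.12 in AluJb to −0.04 in AluJr4.

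**Figure D2:**
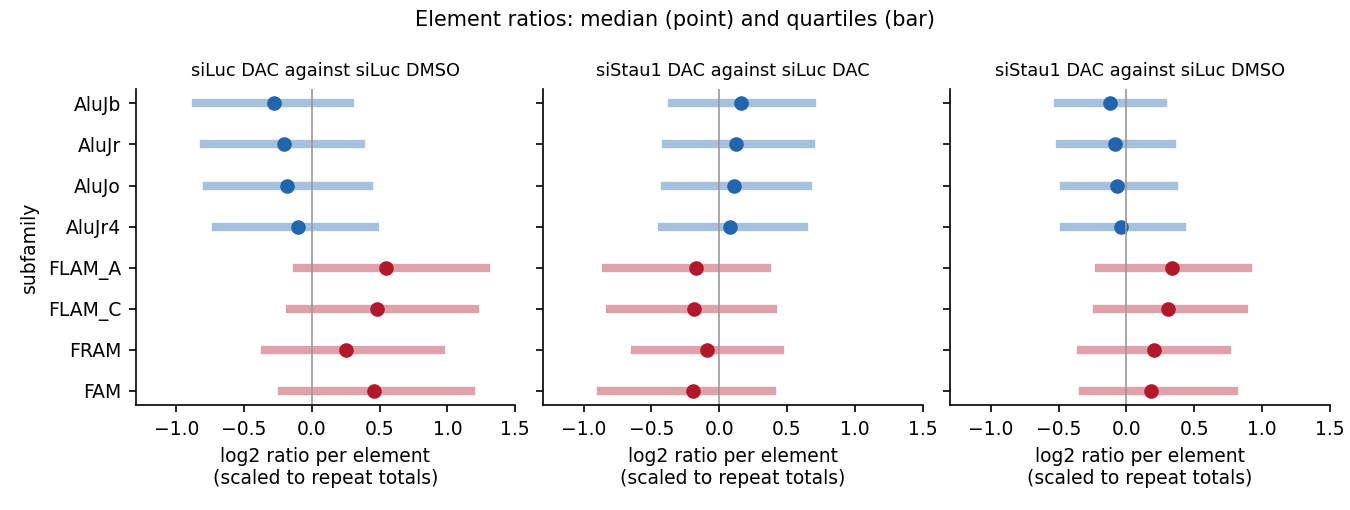
Median (point) and quartiles (bar) of the log2 ratio per element, scaled to the totals on repeats, for each AluJ subfamily (blue) and monomer subfamily (red) in the 3 comparisons of J2 libraries. The quartiles overlap widely, while under this scaling the medians of AluJ and monomers lie on opposite sides of 0 in each panel, from −0.28 to −0.10 against 0.25 to 0.55 in the first.

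The separation was seen at each read depth, but its size varied with it. In the DAC against the DMSO library the AluJ median stayed between −0.25 and −0.21 from elements with 20 to 49 reads up to those with 500 or more. The monomer median went from 0.52 over 3501 elements with 20 to 49 reads to 0.26 over 118 elements with at least 500. In the siStau1 against the DAC library the monomer median went from −0.27 over 3706 elements to 0.09 over 167 elements with at least 500 reads. The interval of the latter, −0.004 to 0.17, includes 0, and the direction found over all monomers rests on those with fewer reads. In the siStau1 against the DMSO library the monomer median lay between 0.22 and 0.28 in all 5 ranges of depth.

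**Figure D3:**
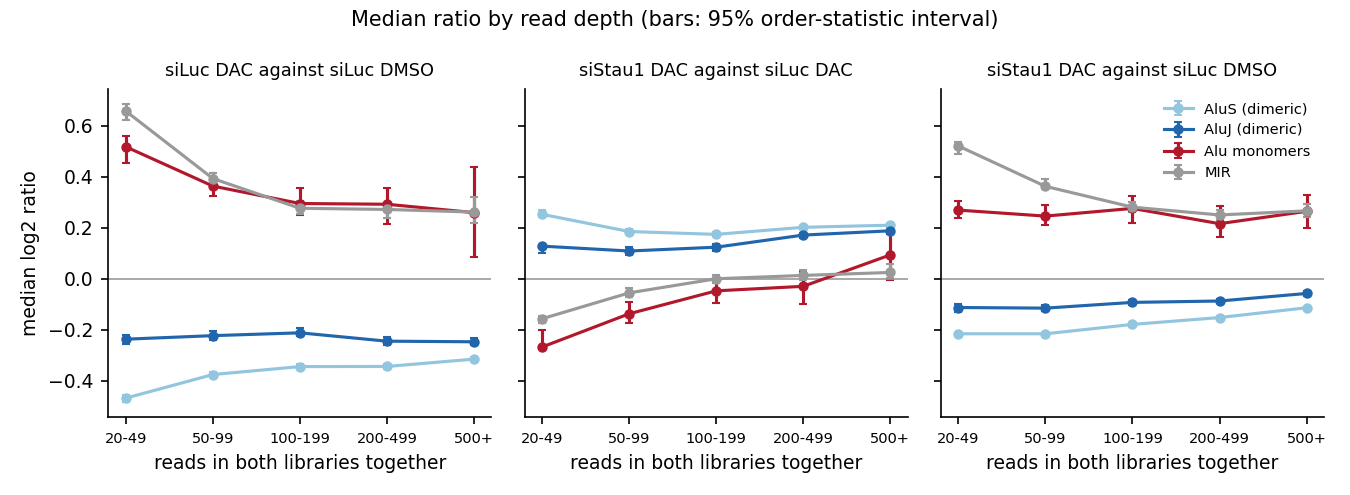
Median log2 ratio (with the 95% order-statistic interval) by the number of reads an element had in both libraries together, for AluS, AluJ, monomers and MIR in the 3 comparisons. AluJ lies on the same side of 0 as AluS at every depth, and the monomers lie nearer to MIR than to AluJ. In the right panel MIR is above the monomers at 20 to 49 reads (0.52 against 0.27). In the middle panel the monomer median is above 0 only in the range of at least 500 reads, with an interval that includes 0.

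Each element name also carries a number, and the medians of both classes differed with it. The files do not state what the number is. It was under 1000 for 91.97% of monomers and 18.8% of AluJ elements, with a median of 785 for monomers and 1667 for AluJ. In the DAC against the DMSO library the AluJ median went from 0.52 for numbers under 700 (1136 elements) and 0.30 for 700 to under 1000 (4307 elements) to −0.28 for 1600 to under 1900 (35155 elements) and −0.40 from 1900 up (22021 elements). Monomers with numbers of 700 to under 1000 had a median of 0.40 (4311 elements), so that in this range AluJ lay 0.094 below the monomers, against 0.63 over all elements. In the same range the difference was 0.040 for the siStau1 against the DAC library, where it was 0.29 over all elements, and −0.040 for the siStau1 against the DMSO library, where it was −0.35. For both comparisons with the siStau1 library, the intervals of the AluJ and monomer medians overlapped in this range. This split was chosen after the values were seen.

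Read levels also differed with the number. Among elements with numbers from 700 to under 1000, the 38080 AluJ elements had 6.04 reads per element in the DMSO library, 7.0004 in the DAC library and 8.13 in the siStau1 library. The 38815 monomers in that range had 5.38, 6.40 and 7.41. A read was found on 29.1%, 29.4% and 30.2% of these AluJ elements and on 29.2%, 30.2% and 30.5% of these monomers. AluJ elements with numbers from 1600 to under 1900 had 38.3, 31.2 and 42.7 reads per element. Within the range from 700 to under 1000, then, AluJ and monomers were close in level, and both had the fewest raw reads per element in the DMSO library.

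**Figure D4:**
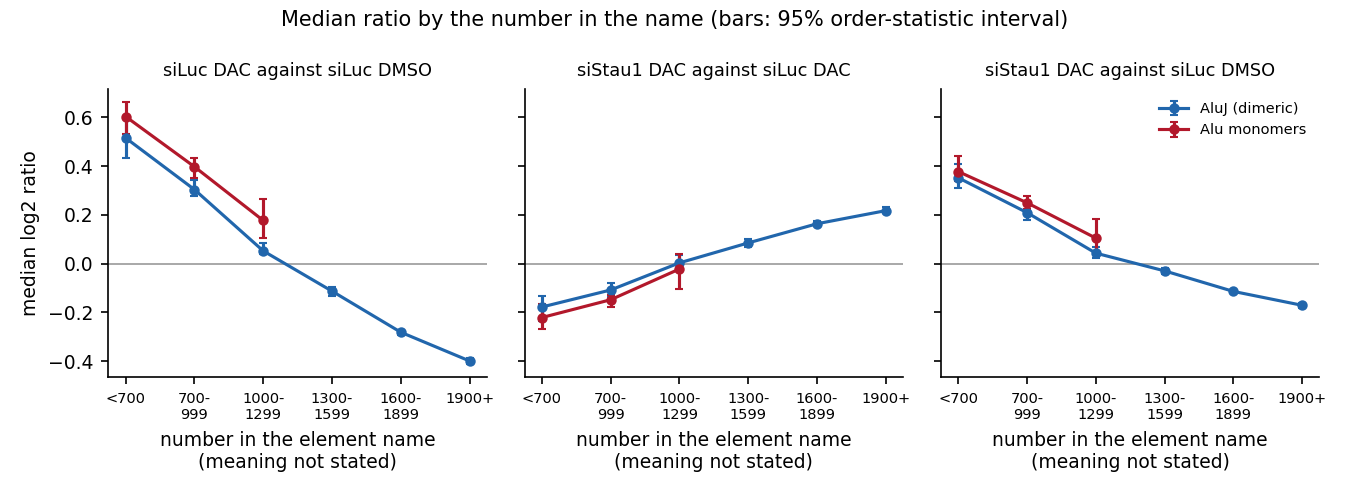
Median log2 ratio (with the 95% order-statistic interval) of AluJ elements and monomers by the number in the element name, whose meaning the files do not state. AluJ elements with numbers under 1000 lie near the monomers in each panel, and AluJ medians cross 0 between low and high numbers.

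Single members with the most extreme ratios were named among those whose reads summed to 100 or more in the pair compared. In the DAC against the DMSO library the highest AluJ elements were AluJr_1732_107, with 8 reads in the DMSO library, 121 in the DAC library and 95 in the siStau1 library, and AluJr_1162_12, with 16, 208 and 74. The highest monomers were FRAM_641_7, with 17, 174 and 48 reads, and FRAM_666_8, with 13, 123 and 24. These 4 were chosen for few reads in the DMSO library relative to the DAC library, so nothing is read from their siStau1 counts. The lowest AluJ elements were AluJb_966_5, with 1135, 0 and 1400 reads, and AluJr_1613_88, with 1046, 0 and 1025. A floor of 3 reads per library puts these 2 at −8.51 or less and −8.39 or less on the log2 scale. The lowest monomers, FRAM_1017_32 with 217, 0 and 301 reads and FRAM_975_52 with 160, 0 and 237, were at −6.12 or less and −5.69 or less. These 4 elements also had the highest ratios in the siStau1 against the DAC library, since all are without reads in the DAC library alone. The lowest in that comparison were AluJb_1703_102 with 42, 167 and 26 reads, AluJr_685_26 with 22, 129 and 20, FRAM_666_8 again, and FLAM_A_787_36 with 44, 179 and 37.

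The proteins that bind Alu RNA were examined in the total RNA, where the authors deposited 1 FPKM per group and their own q-values, so that no spread between libraries can be given. The labels do not say whether the 2 libraries of a group came from separate cultures, so the q-values may measure technical spread. The epithelial markers EPCAM, KRT8, KRT18 and CDH1 were at 14.3 FPKM or more in all 4 groups, while VIL1 and CDX1 were under 1, and of 7 markers of blood, fibroblasts and endothelium at most 1 reached 1 FPKM in any group. These 7 summed to 1.78 and 1.12 FPKM in the DMSO groups of siLuc and siStau1 and to 11.1 and 8.54 FPKM in their DAC groups. Most of each sum was the fibroblast marker COL1A1, with 1.59 and 0.83 FPKM in the DMSO groups and 8.60 and 5.65 in the DAC groups. Each of the other markers was under 1 FPKM in every group. The part of such a shift in the differences with DAC was not tested. STAU1, the siRNA target, had 35.5 FPKM with siLuc and DMSO, 33.7 with siLuc and DAC, 29.98 with siStau1 and DMSO, and 27.1 with siStau1 and DAC, and neither knockdown difference was called in the authors' deposited table (q-values 0.767 and 0.685). The mRNA in the groups labelled siStau1 was thus only slightly lower, and protein was not analysed here. Less of a transcript per cell and fewer cells with it cannot be told apart in these bulk samples.

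With DAC in siLuc, 5 of 19 listed genes for proteins that bind or sense Alu RNA were called lower and 0 higher in the authors' deposited table, where 4.78% of 17504 tested genes were called lower and 8.71% higher. SRP9, of the protein pair on the Alu fold, had 128 FPKM with siLuc and DMSO, 31.7 with siLuc and DAC, 186 with siStau1 and DMSO, and 75.9 with siStau1 and DAC. Its q-value for DAC in the authors' deposited table was 0.00162 in siLuc and 0.00162 in siStau1. SRP14, its partner, had 182, 83.2, 351 and 114 FPKM in that order, with q-values of 0.0302 and 0.0399. SSB, the La protein that binds the ends of new RNA polymerase III transcripts, had 68.3, 17.2, 121 and 37.5 FPKM, and was called in both arms (q-value 0.00162 in each). All 3 were lower in each DAC group than in either DMSO group. DHX9, a helicase that unwinds paired Alu RNA, went from 145 to 70.4 FPKM (q-value 0.0134) and STAU2, the Staufen1 paralog, from 27.9 to 7.33 (0.0383). ADAR had 121, 176, 93.6 and 120 FPKM and was called in none of the 4 comparisons.

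Centring on transcript GC content made the median difference of the 19 genes smaller. The median log2 ratio of the 19 genes for DAC in siLuc was −0.75, and −0.25 after each ratio was centred on genes of like GC content, while the median was 0.08 over the 10953 protein-coding genes at 1 FPKM or higher in each of the pair of groups. After centring, SRP9 was at −1.27 instead of −2.01, SSB at −1.34 instead of −1.98 and SRP14 at −0.69 instead of −1.13. STAU2 was at −0.97 instead of −1.92 and DHX9 at −0.61 instead of −1.04. The part of GC content in the calls was not tested.

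With DAC in siStau1, SRP9, SRP14 and SSB were called lower and IFIH1, which encodes the double-stranded RNA sensor MDA5, was called higher (q-value 0.0266 in the authors' deposited table). IFIH1 had 27.2 FPKM with siLuc and DMSO, 22.0 with siLuc and DAC, 12.9 with siStau1 and DMSO, and 29.1 with siStau1 and DAC. The group with siStau1 and DMSO was the low one, and with DAC in siLuc the value was lower and not called (q-value 0.720 in the authors' deposited table). With DAC in siStau1 2.89% of 16979 tested genes were called lower and 4.56% higher (7.46% in all). With knockdown in DMSO 0 of the 19 were called in the authors' deposited Cuffdiff table, where 0.799% of 15893 tested genes were called, and 2 of them had an unadjusted p under 0.05, as did 4.30% of all tested genes. With knockdown under DAC, SRP9 was called higher (q-value 0.00525), where 0.434% of 17263 tested genes were called higher and 0.904% in all. That call rests on the authors' adjustment over 6 comparisons: adjusted within this comparison by the Benjamini-Hochberg method, the value was 0.144. Of the 19 genes, 4 had an unadjusted p under 0.05 in this comparison in the authors' deposited table, as did 6.95% of all tested genes.

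Of 20 genes of the RNA polymerase III machinery, 2 were called higher and 1 lower with DAC in siLuc in the authors' deposited table, where 8.71% of all tested genes were called higher and 4.78% lower, so that these counts lie near the share over all genes. Cuffdiff called 0 of the 20 in the other 3 comparisons. At an unadjusted p under 0.05 there were 4 of the 20 with DAC in siStau1 (19.0% of all tested genes), 1 with knockdown in DMSO (4.30%) and 2 with knockdown under DAC (6.95%). The 3 called genes are given as values only. POLR3A, the largest subunit, went from 10.1 to 24.1 FPKM (q-value 0.0279) and MAF1, the repressor of the polymerase, from 50.9 to 137 (0.00162). After GC centring the log2 ratio of MAF1 was 0.35 instead of 1.42, and that of POLR3A stayed at 1.24. POLR3G, a subunit that has the alternative POLR3GL, went from 32.3 to 6.56 FPKM (0.00415), and its log2 ratio was −1.34 after centring instead of −2.28.

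**Figure D5:**
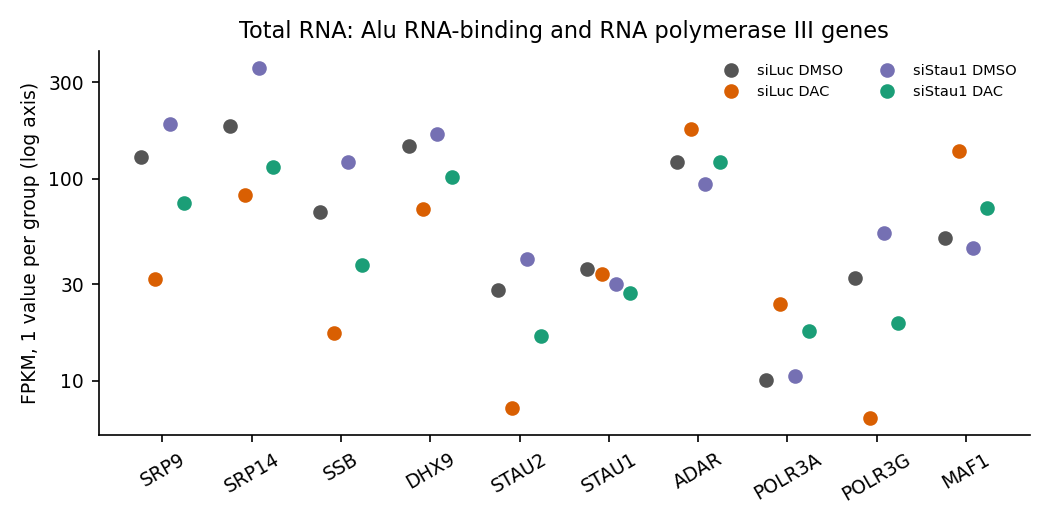
FPKM (log axis, 1 deposited value per group, no error available) of genes for Alu RNA-binding proteins, the Staufen genes and RNA polymerase III factors in the 4 total RNA groups. SRP9, SRP14, SSB and POLR3G are lowest in siLuc DAC, and STAU1 lies between 27.1 and 35.5 FPKM in all groups.

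BCYRN1, which encodes BC200, a small cytoplasmic RNA whose beginning is an Alu left arm, had 1.81 FPKM with siLuc and DMSO, 8.77 with siLuc and DAC, 13.5 with siStau1 and DMSO, and 1.81 with siStau1 and DAC, and was called in none of the 4 comparisons (q-values from 0.629 to 0.770 in the authors' deposited table). RN7SL3, which encodes a copy of 7SL RNA, had 15306, 72793, 10244 and 32602 FPKM and was called for DAC in siLuc (q-value 0.0234) and in siStau1 (0.0134). RN7SL1 and RN7SL2 were listed at 0 in 3 of the 4 groups, with a status of low data, although 7SL RNA is used by every cell, and RN7SK was listed at 0 in siLuc DAC and at 80919 FPKM in siLuc DMSO. These zeros can be failed estimates, the 7SL genes are near-identical copies, and no fold is given for them. The 7SL RNA copies of the J2 tables held 10.5%, 11.1% and 8.76% of reads on repeats in the DMSO, DAC and siStau1 libraries. These shares describe few copies: in each library 1 copy held 51.8%, 51.5% and 51.4% of the 7SL reads. The 14 copies with the most reads held 99.9%, 99.8% and 99.8%.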

How the data were processed

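The authors deposited 3 tables of J2 reads on repeat elements and 1 table of total RNA. In the deposited tables siLuc DMSO holds counts plus 1, and siLuc DAC and siStau1 DAC hold a signal equal to the count plus 1 times 1 factor per library (1.92 and 1.27), whose origin is not given in the sources used here. Dividing each column by its minimum and subtracting 1 gave whole reads for 100.0% of values (tolerance 0.001), and each library was identical in its 2 tables. The totals on repeats were 71473124, 68944777 and 83037330 reads. With 1 J2 library per condition, no count test was run on the whole reads. The total RNA table holds FPKM, p-values and q-values, 1 per group, in Cuffdiff layout per the file headers. The submitters' processing notes list HISAT2 2.1.0, featureCounts, DESeq 1.36.0 and Cuffdiff 2.2.1 with build hg38, without their roles. The handling of reads that map to many places and the repeat annotation are not given in the sources used here, and how reads were shared among near-identical Alu copies is therefore uncertain.

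Element ratios are log2 of scaled reads plus 0.5, with a minimum of 20 reads summed over the pair of libraries. The code was tested on simulated reads with known folds, with equal library totals and only on elements with more reads than the minimum. That test therefore does not cover the scaling or elements with few reads. Reads carry no molecular identifiers, and even read numbers were more common than odd ones over 1 to 6 reads. The ratio was 2.95, 2.13 and 2.77 for AluJ and 1.85, 1.41 and 1.67 for monomers in siLuc DMSO, siLuc DAC and siStau1 DAC. Counting each mate separately would give such a pattern, and the part of this unlike ratio in the results was not tested. Wilson intervals of read shares and the floor of 3 reads therefore cover counting error only and are too narrow. The order-statistic intervals concern the median over elements, not the spread of single elements or of conditions. The interval of a difference between medians combines the half-widths of both order-statistic intervals as the root of their summed squares. Total RNA ratios use FPKM plus 0.1, and GC centring used 20 bins of the longest GENCODE 29 transcript. Python 3.11.15, scipy 1.17.1 and pandas 2.3.3 were used. The deposited element names hold no positions, and sequences are not reported here. Subfamilies were all named. Single elements were the 3 with the most reads in AluJ and in monomers and the 2 highest and 2 lowest ratios in each with at least 100 reads in 2 comparisons. Of the gene lists (5 small RNA genes, 19 binding and sensing proteins, 20 RNA polymerase III genes), the called genes, all small RNA genes, STAU1, SRP9, SRP14 and ADAR were named. The members and lists were chosen with earlier results of these data known. Alternatives covered the scaling, the read minimum, the added reads, elements at 0, the top elements, the definition of monomers and the q-value limit.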

Additional observations from a re-analysis of the deposited data

How the results depend on the processing

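No paired analysis was possible because the J2 libraries have 1 replicate per condition and the total RNA table gives 1 value per group, so fits without single replicates could not be made either. The difference of medians, AluJ minus monomers, kept its sign under every alternative tried. It was much smaller within name numbers of 700 to under 1000. For siLuc DAC against siLuc DMSO (−0.63) it was −0.71, −0.56 and −0.52 with minimums of 10, 50 and 100 reads, and −0.094 within name numbers of 700 to under 1000. For siStau1 DAC against siLuc DAC (0.29) it was 0.35, 0.22 and 0.19 with these minimums and 0.040 within those numbers. For siStau1 DAC against siLuc DMSO (−0.35) it was −0.040 within those numbers and stayed inside its interval under the other alternatives. Within name numbers of 700 to under 1000, the intervals of the AluJ and monomer medians overlapped in both comparisons with the siStau1 library. For siStau1 DAC against siLuc DAC they were −0.14 to −0.08 and −0.18 to −0.13. For siStau1 DAC against siLuc DMSO they were 0.18 to 0.24 and 0.22 to 0.28. The range of name numbers was chosen after seeing the data.

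Scaling decided the direction of single medians. With the authors' factors, all Alu reads and repeats outside Alu, in that order, AluJ was at 0.66, 0.065 and −0.55 for siLuc DAC against siLuc DMSO, at −0.18, −0.068 and 0.35 for siStau1 DAC against siLuc DAC, and at 0.47, −0.0059 and −0.21 for siStau1 DAC against siLuc DMSO. Monomers were at 1.29, 0.70 and 0.081, at −0.47, −0.36 and 0.058, and at 0.82, 0.35 and 0.14.

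The monomer share of member reads in siLuc DMSO, siLuc DAC and siStau1 DAC was 3.25%, 4.77% and 3.99% without the top element of each subfamily. It was 2.79%, 4.22% and 3.59% over elements with at least 20 reads, and 1.75%, 2.71% and 2.23% with FLAM as the only monomers, with the order of the libraries unchanged in each. The mean log2 ratio of AluJ to monomers (2.35 for reads per element) was 0.74 for the percent of elements with a read, 1.76 over elements with a read in any library and 2.42 without the top elements. At a q-value under 0.01 the authors' deposited table called 4 of the listed genes instead of 9 for DAC in siLuc and 2 instead of 5 for DAC in siStau1. Adjusted within the comparison, an alternative added after seeing the data, 0 instead of 1 passed for knockdown under DAC and 11 instead of 9 for DAC in siLuc, where HNRNPC (0.0306) and SRP54 (0.0483), both lower, were added. Depth limits the monomers more than AluJ, since 5.18% of monomers had at least 20 reads in siLuc DMSO against 20.5% of AluJ elements.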

Other observations

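Elements that the deposited names give only as Alu, with no subfamily, numbered 8195 and were not among the members. Their reads numbered 8121 in the DMSO library, 11593 in the DAC library and 12424 in the siStau1 library. Their median log2 ratio was 0.49 over 220 elements for the DAC against the DMSO library (0.30 to 0.65) and −0.18 over 247 elements for the siStau1 against the DAC library (−0.34 to −0.01), on the same side of 0 as the monomers in both. AluY, the youngest dimers, had 23.5, 19.0 and 26.1 reads per element, below AluJ in each library, although a read was found on a larger share of AluY elements (56.7%, 47.3% and 55.6%).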
